A study of Homo sapiens with 24 samples.

Results

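The genes described here encode the SF3a and SF3b proteins of the U2 small nuclear ribonucleoprotein (U2 snRNP), together with the helicase that loads it: SF3B1, SF3B2, SF3B3, SF3B4, SF3B6, PHF5A, SF3A1, SF3A2, SF3A3 and DDX46. They are 10 of 19834 protein-coding genes with a representative transcript in the GENCODE annotation lifted to GRCh37. They were chosen as the target complex of the drug, by name, and not by their splicing values. All rows on the strand and within the span of these genes were taken, 2168 of the 1830076 rows measured in each sample. The genes hold 142 introns in their representative transcripts (all MANE Select), and 141 of these had reads at both splice sites in all 24 samples, the exception being intron 19 of DDX46. The other SF3b protein gene, SF3B5, has no intron and gives no such values.

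HCT116 cells, a human colorectal carcinoma line, were made to overexpress PHF5A from a lentiviral cDNA, either wild type (WT) or with the Y36C substitution, and keep their own PHF5A gene. Both lines came from parental HCT116 by blasticidin selection, so the controls carry a transgene too. Each line was treated with DMSO or with E7107 for 6 h, which gave 4 groups (WT DMSO, Y36C DMSO, WT E7107 and Y36C E7107) of 6 samples. The labels state no dose. Cells of each line were treated and lysed in 6 replicates, so p-values measure the spread between replicate treatments of 1 selected line. Poly(A) RNA was sequenced.

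U2 snRNP recognizes the branch point adenosine of an intron before the first step of splicing. SF3b clamps the duplex of U2 snRNA and the branch site, with SF3B1 as its curved scaffold and PHF5A as a small zinc finger protein held inside it, while SF3a joins SF3b to the rest of the U2 particle. E7107 is a pladienolide derivative that binds the pocket between SF3B1 and PHF5A where the branch point adenosine would lie, and the comparison asks how the transcripts of the targeted complex were themselves spliced under the drug.

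The measurement is the percent spliced in (PSI), the share of reads at a splice site that use a given junction. Reads that cross an exon-intron boundary unspliced count as one of these junctions, and the mean of both boundaries of an intron is called its retention. PSI is a ratio, so more unspliced RNA per cell and more cells with unspliced RNA cannot be told apart, nor can introns kept in finished mRNA and introns caught before splicing. The deposited values hold no read counts, so the depth behind a single PSI is unknown. The number of splice sites with reads had a median of 283313.5 in WT E7107 and of 331094 to 338531.5 in the other groups. Of 8 markers of colon epithelium 5 had reads at splice sites in all samples (EPCAM, CDH1, KRT8, KRT18 and CDX2), KRT20, CDX1 and VIL1 did not, and of 8 markers of other cell types 1 did (COL1A1).

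E7107 raised the mean intron retention of 9 of the 10 genes in WT cells, by between 1.73 percentage points for DDX46 and 47.8 points for SF3A2 (limma on the log odds of PSI, adjusted p of 0.05 or less over 10380 genes). Over all genes tested 72.7% were higher by the same rule, so the count itself is near what the transcriptome shows, and the genes differed in size rather than in direction. PHF5A alone did not pass. In Y36C cells 4 genes were higher (SF3A1, SF3A2, SF3A3 and SF3B3), against 48.8% of all genes, and 1 was lower (DDX46), against 1.09%. Every rise in Y36C cells was under 2 points.

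**Figure D1:**
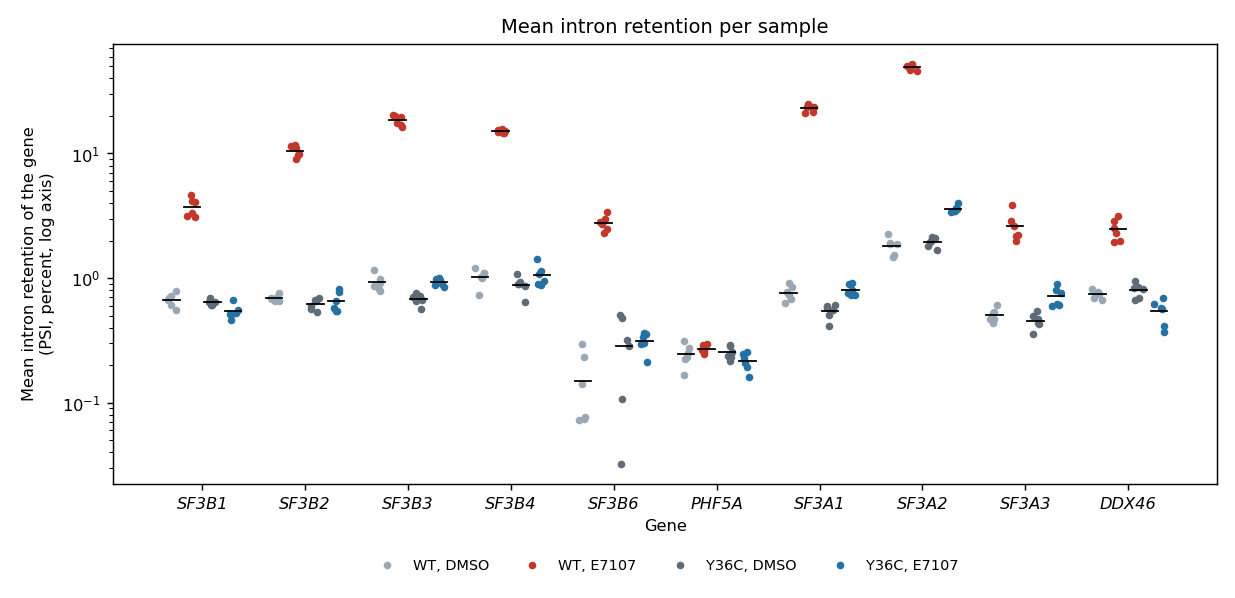
Mean intron retention of each gene (PSI in percent, log axis) in each of the 24 samples, with points for samples and a bar for the mean of 6. Under E7107 the WT samples lie above all WT DMSO samples for every gene but PHF5A, from 2.47% on average in DDX46 to 49.6% in SF3A2, while the Y36C samples stay near DMSO.

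SF3B1, the scaffold that E7107 binds, was among the less affected genes. Its mean retention over 24 introns ran from 0.557% through a median of 0.676% to 0.784% in WT DMSO and from 3.10% through 3.71% to 4.67% in WT E7107, without overlap. This is 0.668% ± 0.0799 against 3.74% ± 0.645 (SD, n = 6 each), a 5.60-fold rise and a log odds difference of 1.07 ± 0.066 (SE, limma, adjusted p = 7.03e-09). In Y36C cells it was 0.639% ± 0.0342 in DMSO and 0.539% ± 0.0718 in E7107, and the difference did not pass (limma, adjusted p = 0.11; with a smaller offset of 0.1 points it was called lower, adjusted p = 0.0428).

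The other large SF3b proteins showed a stronger rise. SF3B2, the partner of SF3B4 within SF3b, had a mean retention with lowest, median and highest values of 0.649%, 0.679% and 0.762% in WT DMSO and of 9.01%, 10.5% and 11.6% in WT E7107, a 15.2-fold rise. SF3B3, a propeller-shaped protein that packs against SF3B1, had 0.790%, 0.894% and 1.17% in WT DMSO and 16.3%, 18.8% and 20.4% in WT E7107, a 20.1-fold rise. For both genes the groups were far apart, with log odds differences of 2.01 ± 0.052 for SF3B2 and 2.51 ± 0.061 for SF3B3 (SE, limma, adjusted p = 1.67e-12 and 8.79e-13). In Y36C cells SF3B3 rose from 0.676% ± 0.0686 to 0.927% ± 0.0618 with no overlap (SD, n = 6 each, limma, adjusted p = 0.00258), a call that was lost with the boundaries of all GENCODE introns (adjusted p = 0.547). SF3B2 was at 0.618% ± 0.0609 and 0.651% ± 0.121 (SD, n = 6 each), which overlapped (limma, adjusted p = 0.734).

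SF3B4 and SF3B6 are RNA-binding proteins of SF3b, SF3B6 (p14) being the one that was found to crosslink to the branch point adenosine. SF3B4 had lowest, median and highest values of 0.729%, 1.06% and 1.20% in WT DMSO and of 14.5%, 15.1% and 15.7% in WT E7107, the tightest E7107 group of the strongly affected genes (SD 0.459, n = 6). SF3B6, with 3 introns, started lowest of all genes at 0.0726%, 0.109% and 0.294% and reached 2.28%, 2.79% and 3.39%. The groups did not overlap for either gene, with log odds differences of 2.22 ± 0.048 for SF3B4 and 1.22 ± 0.061 for SF3B6 (SE, limma, adjusted p = 3.39e-13 and 8.96e-10). Neither gene differed detectably in Y36C cells. SF3B4 was there at 0.883% ± 0.138 and 1.06% ± 0.205, and SF3B6 at 0.287% ± 0.19 and 0.311% ± 0.0548 (SD, n = 6 each, limma, adjusted p = 0.187 and 0.76).

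The SF3a genes ranged widely. SF3A1, the largest SF3a subunit, went from 0.636%, 0.752% and 0.914% (lowest, median and highest) in WT DMSO to 21.0%, 23.4% and 25.0% in WT E7107, the largest fold among the genes at 30.1. SF3A2, a zinc finger protein, went from 1.47%, 1.89% and 2.24% to 46.1%, 50.5% and 52.3%, so that on average about as many reads at its splice sites were unspliced as spliced. Its change in points lay at the 92.3rd percentile of the 10380 genes, that of SF3A1 at the 75.2nd. SF3A3, a zinc finger protein that binds the other SF3a subunits, went only from 0.439%, 0.498% and 0.608% to 1.99%, 2.41% and 3.86%, at the 32.6th percentile. The differences in log odds were 2.86 ± 0.05 for SF3A1, 3.55 ± 0.063 for SF3A2 and 0.88 ± 0.079 for SF3A3 (SE, limma, adjusted p = 7.38e-14, 7.86e-14 and 3.07e-07).

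All SF3a genes also rose in Y36C cells, with no overlap between DMSO and E7107 samples. SF3A2 showed the largest change, from 1.95% ± 0.178 to 3.59% ± 0.217, followed by SF3A1 (0.541% ± 0.0728 to 0.806% ± 0.0798) and SF3A3 (0.453% ± 0.0635 to 0.714% ± 0.124; SD, n = 6 each). By limma the adjusted p was 1.49e-06 for SF3A2, 0.00222 for SF3A1 and 0.00468 for SF3A3, and the call of SF3A3 was lost with the median over boundaries (adjusted p = 0.567).

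DDX46 (PRP5) is the DEAD-box helicase that remodels U2 snRNP before it docks on the branch site. Its retention went from 0.665%, 0.756% and 0.810% (lowest, median and highest) in WT DMSO to 1.94%, 2.43% and 3.14% in WT E7107, the smallest called rise, 3.34-fold (limma, adjusted p = 4.18e-07). In Y36C cells it moved the other way, from 0.667%, 0.820% and 0.947% to 0.367%, 0.570% and 0.695%, with overlapping groups (log odds difference -0.16 ± 0.046, SE; limma, adjusted p = 0.0123). This call was lost with the boundaries of all GENCODE introns (limma, adjusted p = 0.0688) and with the median over boundaries (limma, adjusted p = 1).

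Under E7107 in WT cells the order was SF3A2, SF3A1, SF3B3, SF3B4, SF3B2, SF3B1, SF3B6, SF3A3, DDX46 and PHF5A. The ranges over samples did not overlap between neighbours down to SF3B1. From SF3B1 to DDX46 each gene overlapped the next in the order, and PHF5A stood apart below DDX46. Before treatment the WT order had SF3A2 first and apart from the others, and no neighbours from SF3B4 down to SF3A3 were apart.

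Under DMSO 0 of the 10 genes differed between the genotypes by limma at an adjusted p of 0.05 or less, against 1.19% of all genes, and 2 had an unadjusted p under 0.05 (SF3A1 and SF3B3, adjusted p = 0.131 and 0.139, both lower in Y36C). Under E7107 the same 9 genes were lower in Y36C than in WT cells, against 65.3% of all genes. The test of the difference between the drug effects gave 9 genes with a smaller effect in Y36C cells, against 61.2%, with log odds differences from -0.72 ± 0.088 for SF3A3 to -3.09 ± 0.072 for SF3A2 (SE, limma, adjusted p = 1.13e-07 and 1.53e-20). These comparisons share samples with those above.

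Intron by intron, 136 of the 141 measured introns had a higher mean under E7107 in WT cells, which is 96.5%, beside 81.3% of 89521 introns in all genes with at least 3 measured introns. Of these, 56 were higher by 10 points or more, 39.7% of the introns beside 35.7% of all. In Y36C cells 92 were higher and 48 lower, so that 65.2% were higher beside 72.7% of all introns, and 0 were higher by 10 points or more, beside 6.03%. The gene, rather than the intron, carried most of the variation in the WT change: 81% of its variance in points lay between genes, near the 78.8% over all genes. In Y36C cells this share was 22.8%, beside 33.7% over all genes.

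Single boundaries gave the same picture. Of 280 boundary rows tested in WT cells 248 were higher and 3 lower (limma, adjusted p of 0.05 or less), against 70.8% higher and 5.78% lower among all boundary rows. Only rows with a PSI above 0 throughout at least 1 compared group entered the test. Of the 280, 191 met this only through the E7107 samples, a selection that favours a rise, and 181 of them were called higher. Of the 89 rows above 0 in all WT DMSO samples 67 were higher. In Y36C cells 20 of 138 rows were higher and 5 lower, against 26.8% and 1.26% of all rows. There 44 of the 138 passed the filter only through the E7107 samples and gave 9 of the higher calls, and the 94 rows above 0 in all Y36C DMSO samples gave the other 11. Under DMSO 0 of 117 differed between genotypes, against 0.166%, and 12 had an unadjusted p under 0.05. The drug effect differed between genotypes at 241 of 280 rows, all with the smaller effect in Y36C, against 54.9%. Rows above 0 throughout only in WT E7107 entered this test too, which favours a smaller effect in Y36C, and they were not counted apart.

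**Figure D2:**
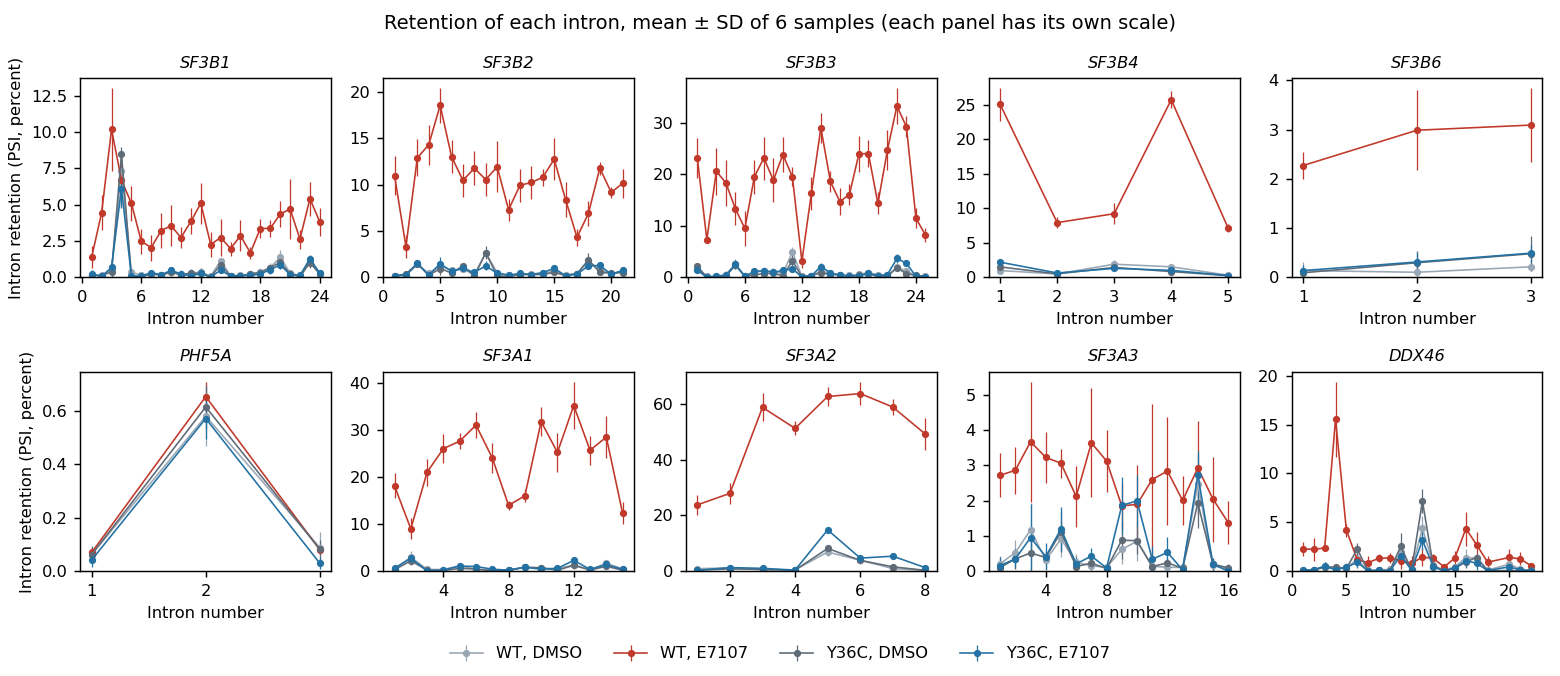
Retention of each intron (PSI in percent) by its number from the 5′ end, as the mean ± SD of 6 samples in each group, with a scale of its own for each gene. In SF3A2 the WT E7107 values run from 23.8% at intron 1 to 63.8% at intron 6, whereas in DDX46 only intron 4 exceeds 4.34% in that group.

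Within SF3A2 the smallest change was already large. Intron 1, which lies upstream of the coding sequence, went from 0.838% ± 0.511 to 23.8% ± 3.46 in WT cells, and intron 6 from 3.87% ± 1.2 to 63.8% ± 4.25 (SD, n = 6 each). In Y36C cells intron 5 changed most, from 7.06%, 7.82% and 9.49% (lowest, median and highest) in DMSO to 14.3%, 14.7% and 15.3% in E7107. Both of its boundaries rose there, by 0.66 ± 0.127 at the donor and 0.61 ± 0.101 at the acceptor in log odds (SE, limma, adjusted p = 0.00274 and 0.00101). It was the largest change of any intron of the 10 genes in Y36C cells, and the same intron reached 62.8% ± 3.4 in WT cells.

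The short introns allow whole sequences to be set side by side. The 4 printed here were chosen for near-equal length and very different retention; the first and last bases, GT and AG, are in capitals. Positions are those of GRCh37, on the plus strand for SF3A2 (chr19:2246802-2246880) and the minus strand for SF3B1 intron 19 (chr2:198264891-198264975), SF3A1 (chr22:30735024-30735118) and SF3B1 intron 15 (chr2:198266613-198266708). All lie within the coding part of their genes.
SF3A2 intron 6: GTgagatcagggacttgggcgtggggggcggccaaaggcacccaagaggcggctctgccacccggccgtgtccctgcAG
SF3B1 intron 19: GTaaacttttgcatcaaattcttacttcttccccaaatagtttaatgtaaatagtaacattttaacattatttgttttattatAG
SF3A1 intron 10: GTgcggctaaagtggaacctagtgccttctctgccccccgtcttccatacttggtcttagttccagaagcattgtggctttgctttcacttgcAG
SF3B1 intron 15: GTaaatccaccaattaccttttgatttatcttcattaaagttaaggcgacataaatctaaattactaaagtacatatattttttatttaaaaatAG

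SF3A2 intron 6, with 79 bases and 70.9% GC, went from 3.87% ± 1.2 to 63.8% ± 4.25 in WT cells, whereas SF3B1 intron 19, with 85 bases and 22.4% GC, went from 0.665% ± 0.296 to 3.36% ± 0.587 (SD, n = 6 each). SF3A1 intron 10, with 95 bases and 51.6% GC, went from 0.585% ± 0.483 to 31.7% ± 3.03, and SF3B1 intron 15, with 96 bases and 21.9% GC, from 0.0903% ± 0.12 to 1.96% ± 0.489. In Y36C cells under E7107 the same introns were at 4.63% ± 0.935, 0.516% ± 0.293, 0.374% ± 0.348 and 0.0809% ± 0.087, in the order printed.

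Over the 141 introns, GC content and the WT change in points had a Pearson correlation of 0.62 and a Spearman correlation of 0.51. These introns share 10 genes, and within genes the values were 0.22 and 0.21. Mean intron GC was 64.0% in SF3A2, 51.1% in SF3A1 and 32.9% in SF3B1, but SF3B3 and SF3A3, at 43.5% each, had median intron changes of 17.8 and 2.24 points. The correlation of the WT change with log length was -0.2, and with a score of the donor sequence 0.01, of the acceptor sequence -0.12 and with the pyrimidine share before the acceptor 0.01. The letters CTNAC, a loose form of the branch site searched on the transcribed strand only, stood in the last 50 bases of 28.2% of the 142 introns and of 24.8% of 183689 introns of all genes.

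**Figure D3:**
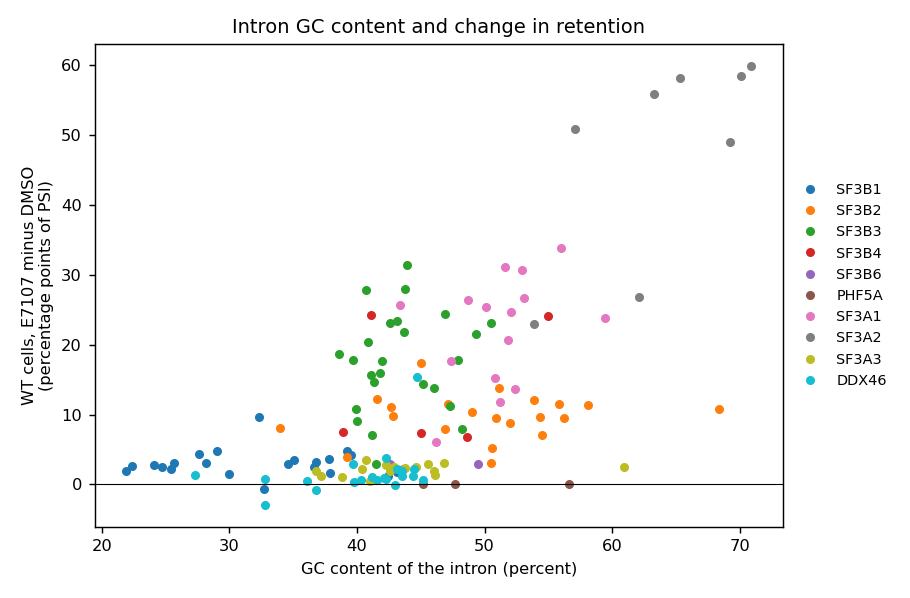
GC content of each of the 141 introns (percent) against its change in retention under E7107 in WT cells (percentage points), with a colour for each gene. The 8 introns of SF3A2 lie at the upper right, with changes of 22.9 to 59.9 points, while SF3B3 and SF3A3, with the same mean GC content, have median changes of 17.8 and 2.24 points.

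SF3B1 held 1 intron that behaved unlike the others. Intron 4 (chr2:198283313-198285151, minus strand) was already retained at 7.35% ± 1.11 in WT DMSO and was at 6.69% ± 1.88 in WT E7107. It was at 8.46% ± 0.493 and 6.11% ± 1.35 in Y36C cells (SD, n = 6 each), and none of these differences passed at either boundary (limma, adjusted p from 0.0522 to 0.744). When PSI was tested on its own scale, the donor was called lower in Y36C cells, by -2.34 points, and the difference between the drug effects passed, at -2.87 points (limma, adjusted p = 0.0202 and 0.0299). Its neighbour intron 3 (chr2:198285267-198285752) went from 0.301%, 0.491% and 0.762% (lowest, median and highest) to 6.65%, 9.39% and 14.6% in WT cells, the largest change of the gene (donor log odds 2.35 ± 0.21, SE; limma, adjusted p = 7.3e-07). The ends of the introns are shown since the introns adjoin the same exon and responded so differently. The terminal GT and AG are in capitals, with 3 exon bases beyond them.
SF3B1 intron 3 donor: cagGTgatcttt
SF3B1 intron 3 acceptor: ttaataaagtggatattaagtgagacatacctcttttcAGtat
SF3B1 intron 4 donor: atgGTaattctt
SF3B1 intron 4 acceptor: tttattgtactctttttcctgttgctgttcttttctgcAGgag

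DDX46 likewise had a single intron far above the rest. Intron 4 (chr5:134106690-134109385, plus strand) went from 0%, 0.119% and 0.595% (lowest, median and highest) in WT DMSO to 10.2%, 16.6% and 19.7% in WT E7107, a change of 15.4 points, whereas the largest change of its other measured introns was 3.83 points. Its donor rose by 2.73 ± 0.142 in log odds and its acceptor by 2.87 ± 0.213 (SE, limma, adjusted p = 6.75e-09 and 1.38e-07). Both boundaries entered this test only through the E7107 samples, a selection that favours a rise. In Y36C cells the retention of intron 4 was 0.393% ± 0.313 in DMSO and 0.134% ± 0.246 in E7107 (SD, n = 6 each). The donor of this intron scored 1.99 against the average human donor, where the median of the 142 introns was 8.5. The 1 intron that scored lower, intron 19 of DDX46 at -3.03, was not measured. Intron 10 of DDX46, with a donor at 3.51, changed by -0.842 points in WT cells.
DDX46 intron 4 donor: ggcGTatgttta
DDX46 intron 4 acceptor: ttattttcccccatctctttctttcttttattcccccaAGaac
DDX46 intron 12 donor: gtgGTaagtcag
DDX46 intron 12 acceptor: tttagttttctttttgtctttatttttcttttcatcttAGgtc

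Intron 12 of DDX46 (chr5:134124282-134126159), whose ends are printed for contrast, fell under the drug in both lines. It went from 3.10%, 4.08% and 6.63% to 0.206%, 1.39% and 2.83% in WT cells and from 5.68%, 7.22% and 8.82% to 2.24%, 3.07% and 4.57% in Y36C cells, with no overlap in either line. The acceptor fell by 1.08 ± 0.226 and by 1.14 ± 0.175 in log odds (SE, limma, adjusted p = 0.00118 and 0.000646), and the difference between the genotypes did not pass (limma, adjusted p = 0.89). An annotated donor inside this intron was joined to exon 13 in 37.9% ± 12.9 of the reads at that donor in Y36C DMSO and in 66.5% ± 8.64 in Y36C E7107 (SD, n = 6 each, limma, adjusted p = 0.00626). In WT cells, where it did not pass the filter and was not tested, the share was 19.7% ± 10.8 in DMSO and 40.1% ± 26.0 in E7107.

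Among the other genes, SF3B3 changed most at intron 22, from 1.91% ± 0.668 to 33.3% ± 3.51 in WT cells, and least at intron 12, from 0.194% ± 0.278 to 3.13% ± 1.33. In Y36C cells intron 23 of SF3B3 changed most, from 0.670% ± 0.291 to 2.69% ± 0.449, with both boundaries called (limma, adjusted p = 0.0057 and 0.000662). SF3A1 changed most at intron 12 in WT cells, from 1.28% ± 0.74 to 35.2% ± 5.06, and least at intron 2, from 2.91% ± 1.23 to 8.94% ± 2.21. SF3B4 changed most at intron 4, from 1.51% ± 0.403 to 25.8% ± 1.27, and least at intron 5, from 0.287% ± 0.152 to 7.10% ± 0.569 (all SD, n = 6 each). The least affected introns of SF3A1 and SF3B4 thus changed more than every intron of SF3A3 and more than all but 1 measured intron each of SF3B1 and DDX46.

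SF3B2 changed most at intron 5, from 1.23% ± 0.36 to 18.6% ± 1.85, and least at intron 2, from 0.173% ± 0.16 to 3.30% ± 1.24. SF3B6 had an even response, from 2.14 points at intron 1 to 2.89 points at intron 2. SF3A3 changed most at intron 7, from 0.151% ± 0.191 to 3.64% ± 1.55, and least at intron 14, which was at 2.48% ± 0.77 and 2.93% ± 1.34 (all SD, n = 6 each). Of the 140 introns inside the coding part of these genes 135 contain a stop codon in frame with the upstream exon, and its median end was at base 45 of the intron.

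PHF5A was the one gene without a called change over its representative introns: mean retention was 0.166%, 0.243% and 0.313% (lowest, median and highest) in WT DMSO, 0.244%, 0.262% and 0.294% in WT E7107, and 0.216%, 0.247% and 0.291% against 0.159%, 0.217% and 0.255% in Y36C cells. The groups overlapped in both lines (limma, adjusted p = 0.627 and 0.382), although the median over boundaries was called lower in Y36C cells (log odds difference -0.0573, limma, adjusted p = 0.0194). At these splice sites, exon-exon reads of the introduced cDNA and of spliced endogenous mRNA count alike as spliced, and cannot be told apart. Any reads of the PHF5A pseudogenes (PHF5AP1, PHF5AP3, PHF5AP4, PHF5AP5 and PHF5AP7) that were aligned here would count as spliced too, which was not tested. Pseudogenes are also annotated for SF3B4 (SF3B4P1), SF3A2 (SF3A2P1) and SF3A3 (SF3A3P1 and SF3A3P2).

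Annotated donors that lie inside the introns of PHF5A are absent from a cDNA. One is 147 bases into intron 1 (chr22:41864450-41864461 for the 12 bases printed) and one 104 bases into intron 2 (chr22:41864015-41864026), both on the minus strand of GRCh37. They are shown with GT in capitals.
PHF5A donor inside intron 1: cagGTttgtggc
PHF5A donor inside intron 2: gaaGTatgtgaa

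At the donor inside intron 2 the unspliced share ran from 0% through a median of 38.1% to 66.7% in WT DMSO and from 94.6% through 97.4% to 98.9% in WT E7107, a rise of 4.22 ± 0.739 in log odds (SE, limma, adjusted p = 0.000296). At the donor inside intron 1 it ran from 0% through 7.14% to 33.3% and from 40% through 71.1% to 84.6% (log odds 3.67 ± 0.767, SE; limma, adjusted p = 0.00115). The groups did not overlap at either donor in WT cells. Both donors entered the WT test only through the E7107 samples, a selection that favours a rise. In Y36C cells the share was 41.2% ± 26.9 in DMSO and 50.1% ± 19.4 in E7107 at the intron 2 donor, and 17.7% ± 13.9 and 6.67% ± 10.3 at the intron 1 donor (SD, n = 6 each). At both donors the log odds difference in Y36C cells lay below that in WT cells, by -3.48 ± 1.16 and -5.25 ± 1.18 (SE, limma, adjusted p = 0.0157 and 0.000728). At the intron 1 donor WT E7107 was the only group above 0% throughout, which favours a smaller effect in Y36C cells. These sites were looked at beside the representative ones after their values were seen, and their SDs are wide at a depth that is unknown. With the boundaries of all GENCODE introns, the mean retention of PHF5A was called higher in WT cells (log odds 1.43; limma, adjusted p = 0.00159).

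**Figure D4:**
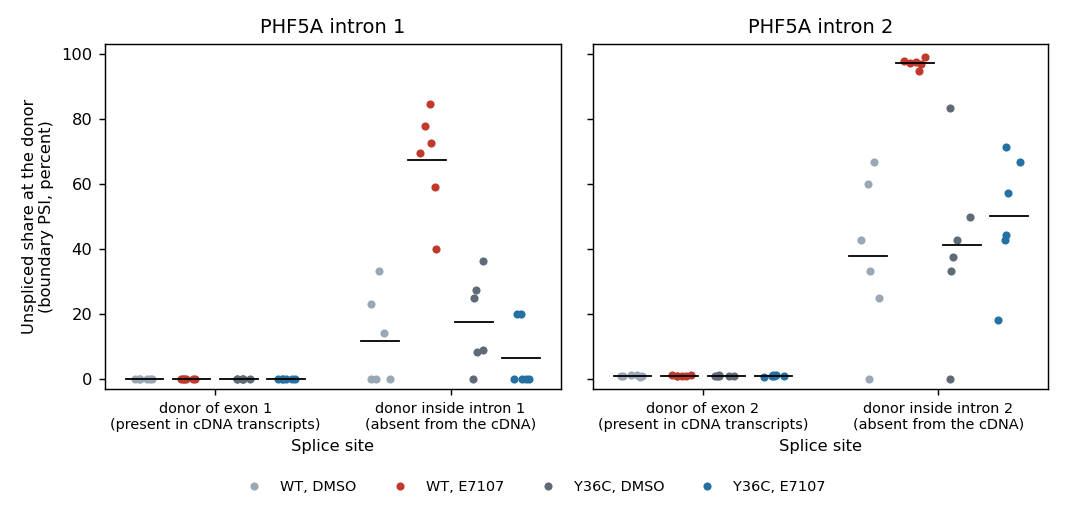
Unspliced share (boundary PSI in percent) at the donors of PHF5A exons 1 and 2 and at annotated donors inside introns 1 and 2, in each sample, with bars for the means of 6. At the exon donors no sample exceeds 1.36%, while at the donors inside the introns the WT E7107 samples lie above all WT DMSO samples.

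Similar shifts were found at donors and acceptors inside introns of SF3A2 and SF3B3. In SF3A2 a donor inside intron 2 was joined to exon 3 in 85.7% to 100% of its reads in WT DMSO (median 100%) and in 11.1% to 24.6% in WT E7107 (median 17.3%), a log odds difference of -5.25 ± 0.55 (SE, limma, adjusted p = 3.24e-06), while in Y36C cells it was at 86.1% ± 22.2 and 97.4% ± 6.28. In SF3B3 a donor inside intron 1 was joined to exon 2 in 81.1% ± 19.5 and 12.7% ± 3.45 of its reads in WT cells and in 76.2% ± 15.7 and 77.7% ± 20.2 in Y36C cells (SD, n = 6 each). Both differences between genotypes passed (limma, adjusted p = 8.3e-05 and 0.00469). Since the shares at a site add up to 100%, the fall of a spliced share is a rise of the unspliced or of another spliced share at the same site.

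SF3B3 intron 11 holds an annotated cassette exon whose acceptor (chr16:70584552, the last intron base) was joined to exon 11 in 73.1% ± 7.49 of its reads before and 22.8% ± 6.19 after E7107 in WT cells (limma, adjusted p = 2.37e-06), and in 77.9% ± 12.4 and 64.9% ± 17.7 in Y36C cells (SD, n = 6 each). Its donor was joined to exon 12 in 56.8% ± 16.5 of reads in DMSO and 9.22% ± 3.41 with the drug in WT cells, and in 55.6% ± 8.74 and 54.6% ± 11.3 in Y36C cells. A later acceptor in the intron was joined to this donor in a share of the reads at that acceptor that fell in both lines, from 67.9% ± 17.5 to 18.6% ± 9.26 in WT cells and from 63.9% ± 10 to 38.3% ± 11.3 in Y36C cells (limma, adjusted p = 0.000325 and 0.0107). Of 26 such other spliced junctions tested in WT cells 14 were lower and 4 higher, against 39.1% and 6.81% of all. In Y36C cells 6 of 30 were lower and 1 higher, against 13.4% and 9.17%. One of these, with 4.94% ± 2.97 in WT DMSO and 33.3% ± 7.81 in WT E7107, lies where the span of DDX46 overlaps C5orf24 on the same strand and joins exons annotated for C5orf24, so it cannot be credited to DDX46.

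Most exon-skipping junctions tested in WT cells were in SF3B3, 21 of 39. Of the 39 exon-skipping junctions tested in WT cells 31 were higher and 1 lower, against 32.4% and 17.1% of all, and 20 of the 31 were in SF3B3. Of these 39, however, 32 were above 0 in all samples only of the E7107 group, a selection that favours a rise, and 29 of them were called higher. Of the 7 above 0 in all WT DMSO samples 2 were higher. In Y36C cells 11 of 18 were higher and 0 lower, against 50.7% and 2.26%, and 5 of the 11 were in SF3B3. Of these 18, 10 passed the filter only through the E7107 samples and gave 6 of the calls, and the 8 above 0 in all Y36C DMSO samples gave 5. Across the lines 7 junctions were called in both, among them the SF3A3 junction from exon 9 to exon 11, which was lower in WT and higher in Y36C cells. The drug effect differed between the genotypes at 30 of 45, with 25 smaller in Y36C (15.9% of all) and 5 larger (37.0% of all). Junctions above 0 throughout in only a single E7107 group entered this test too, which favours a difference, and they were not counted apart. The changes were small, with medians of 1.55 points in WT cells and 1.85 points in Y36C cells among those called higher.

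In SF3B3 the junction from exon 15 to exon 18 (intron chr16:70590933-70597778), which leaves out 278 bases and so shifts the reading frame, was used in 0% to 0.312% of reads in WT DMSO (median 0.147%) and in 11.4% to 16.2% in WT E7107 (median 13.6%). This was the only exon-skipping junction to change by 10 points. It rose by 2.7 ± 0.126 in log odds (SE, limma, adjusted p = 2.96e-09) and was at 0.181% ± 0.281 and 0.448% ± 0.331 in Y36C cells (SD, n = 6 each, limma, adjusted p = 0.352; difference of the drug effects -2.49, adjusted p = 7.56e-11). The junction from exon 7 to exon 12, which leaves out 439 bases, was at 0% in all WT DMSO samples and at 9.94% ± 1.33 in WT E7107, and reached 0.131% ± 0.222 in Y36C E7107. The junction from exon 18 to exon 21, which leaves out 363 bases and keeps the frame, rose from 0.361% ± 0.453 to 7.12% ± 0.915 in WT cells and from 0.102% ± 0.158 to 1.22% ± 0.266 in Y36C cells (limma, adjusted p = 4.47e-07 and 0.000812). In WT cells these junctions entered the test only through the E7107 samples, since some or all WT DMSO samples were at 0%. The same held in Y36C cells for the junctions tested there.

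The 5 junctions with a larger response in Y36C than in WT cells were all in SF3A3 (3) and SF3B2 (2). Skipping of SF3A3 exons 10 to 12, which leaves out 246 bases and keeps the frame, had lowest, median and highest values of 2.45%, 3.11% and 5.36% without drug and 4.91%, 5.59% and 7.20% with E7107 in WT cells. In Y36C cells these were 2.59%, 3.16% and 4.56% without drug and 9.85%, 13.5% and 14.6% with it. The Y36C samples under E7107 lay above all others. The rise was 1.28 ± 0.129 in log odds in Y36C and 0.46 ± 0.136 in WT cells (SE, limma, adjusted p = 3.87e-05 and 0.0112), and the difference between them was 0.82 (limma, adjusted p = 0.000357). Skipping of SF3A3 exon 10 alone, with 68 bases, fell in WT cells from 0.962% ± 0.492 to 0.205% ± 0.225 and rose in Y36C cells from 0.467% ± 0.377 to 2.32% ± 0.827 (limma, adjusted p = 0.0126 and 0.00396; difference 1.32, adjusted p = 1.83e-05). It entered the WT test only through the DMSO samples and the Y36C test only through the E7107 samples, since the other group held samples at 0%.

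Skipping of SF3B2 exon 15, which has 90 bases and keeps the frame, was at 0.196% ± 0.152 and 0.194% ± 0.165 in WT cells and went from 0.236% ± 0.246 to 1.85% ± 0.389 in Y36C cells (SD, n = 6 each, limma, adjusted p = 0.000462, and 5.85e-05 for the difference between genotypes). It entered both tests only through the Y36C E7107 samples, the only group above 0 throughout. In SF3B3 the junction from exon 7 to exon 10, which leaves out 270 bases and keeps the frame, went from 1.04% ± 0.857 to 3.05% ± 0.759 in WT cells and from 1.08% ± 0.565 to 6.24% ± 1.66 in Y36C cells (limma, adjusted p = 0.000216), and the difference between the genotypes did not pass (limma, adjusted p = 0.0956). The rise of this junction was called in WT cells too, at its other end (limma, adjusted p = 0.0042). Skipping of SF3B6 exon 2 went from 4.22% ± 0.945 to 7.48% ± 1.08 in Y36C cells (limma, adjusted p = 0.0097) and was at 4.11% ± 0.728 and 6.13% ± 1.59 in WT cells. Its difference between the genotypes did not pass (limma, adjusted p = 0.406). At these junctions, in contrast to retention, the Y36C samples under E7107 had the higher mean. For those of SF3B3 and SF3B6 the tests did not show a larger drug effect in Y36C cells.

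**Figure D5:**
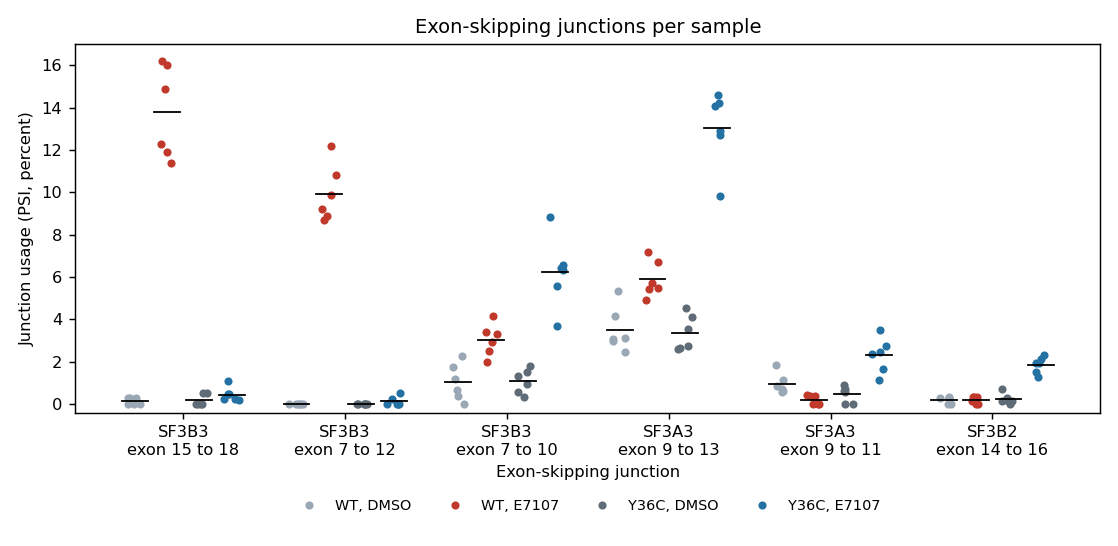
Usage of 6 exon-skipping junctions (PSI in percent) in each sample, with bars for the means of 6. The SF3B3 junctions from exon 15 to 18 and from exon 7 to 12 are high in WT E7107 samples only, whereas those of SF3A3 and SF3B2 and the SF3B3 junction from exon 7 to 10 have their highest means in Y36C E7107.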

How the data were processed

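Poly(A) RNA of HCT116 cells expressing WT or Y36C PHF5A was sequenced after 6 h of DMSO or E7107, with 6 samples in each of 4 groups. Per the submitters' notes reads were aligned with STAR (version not given in the sources used here) to hg19, and the authors deposited, for each sample, PSI in percent for every junction or unspliced boundary at a splice site. The percentages at a site added up to 100 or, with no reads, to 0. No counts were used here, so depth is described only by the 207423 of 638460 sites with reads in all 24 samples. Rows with no strand or on the mitochondrial chromosome (6433) were left out.

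Introns came from GENCODE 44 lifted to GRCh37, using the representative transcript of each gene. A boundary row spans a splice site without splicing. Gene mean retention is the mean over all boundaries of a gene (at least 2) and intron retention the mean of its 2 boundaries. PSI was tested as the natural log of (PSI + 1)/(100 - PSI + 1), an offset of 1 percentage point taken from earlier processing of these data, with limma 3.58.1 (R 4.3.3) and Benjamini-Hochberg adjustment over all genes, or over all rows at sites with reads in all compared samples and a PSI above 0 throughout at least 1 of the groups. Differences are called log odds. Each comparison used its own groups, and the difference between drug effects used all 4. Of the rows at both ends of a junction, that with the lower p stood for it. Tables were read with Python 3.11.15 and pandas 2.3.3, and the fits were tested on simulated data with known changes.

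Named introns were those with the largest and smallest change of each gene, in each line, and named junctions were those called with a change of at least 10 points (at most 15 exon-skipping and 10 others). PHF5A sites inside introns, the short introns and the further exon-skipping junctions were chosen after their values were seen. The genes and lists were chosen with earlier results of these data known. Samples of different groups with the same replicate number did not deviate together over 499421 rows (correlations of -0.0063 to 0.0070 over 36 pairs), so no pairing was used. This does not address a shift within 1 group. Within WT E7107, replicates 1 to 3 lay above replicates 4 to 6 in mean retention of SF3B1, SF3B2, SF3B3, SF3A1 and DDX46, but not of the other genes. The cause was not tested.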

Additional observations from a re-analysis of the deposited data

Results flagged for a closer look

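The difference between the drug effects in Y36C and WT cells was past the limma threshold for the mean retention of 9 genes, with log odds differences of -1.13 for SF3B1, -1.99 for SF3B2, -2.37 for SF3B3, -2.13 for SF3B4, -1.19 for SF3B6, -2.70 for SF3A1, -3.09 for SF3A2, -0.72 for SF3A3 and -0.86 for DDX46. It was also past the threshold for named junctions. The share spliced from the donor inside SF3A2 intron 2 to exon 3 differed by 6.19, and that from the donor inside SF3B3 intron 1 to exon 2 by 4.27. In PHF5A the spliced shares of the donors inside introns 2 and 1 differed by 3.56 and 5.42, and the call at intron 2 was lost with an offset of 0.1 points (limma, adjusted p = 0.0625). The junctions of SF3B3 intron 11 differed by 1.56 (exon 11 to the inner acceptor), 1.30 (within the intron) and 2.50 (inner donor to exon 12). The call of the junction within the intron was lost with PSI as the response and with no filter (limma, adjusted p = 0.0532 and 0.0749). The junction shared with C5orf24 differed by -1.91, and the SF3B3 junction from exon 15 to exon 18 by -2.49.

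In 7 of 120 groups of 6 samples tested, 1 sample stood far from the others by Dixon's ratio of its gap to the range, for which the 95% critical value is 0.625 and chance gives about 1 group in 20. The ratio was 0.644 for SF3B1 intron 3 in Y36C E7107, 0.783 for SF3B6 intron 2 in WT DMSO, 0.639 for SF3A3 intron 7 in Y36C DMSO, and 0.714 and 0.68 for DDX46 intron 4 in Y36C DMSO and Y36C E7107. It was 1.0 for the SF3A2 junction inside intron 2 in Y36C E7107, where 5 samples were at 100% and 1 at 84.6%, and 0.719 for the SF3B3 junction from exon 15 to exon 18 in Y36C E7107.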

How the results depend on the processing

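No result changed direction with a call under any alternative tried, and of 170 alternative values for counts of calls 119 stayed within 1.5 times the first count. Keeping only rows with a group mean PSI of at least 5% left, of the boundary rows, 164 higher and 1 lower in WT cells, 3 and 2 in Y36C cells, 1 higher and 163 lower for Y36C against WT under E7107, and 160 lower for the difference of drug effects. It left 5 exon-skipping junctions higher and 0 lower in WT cells, 3 higher in Y36C cells, and 1 higher and 4 lower for the difference, and other spliced junctions at 2 higher and 9 lower in WT cells and 2 lower in Y36C cells. Asking for a difference of at least 10 points left 122 boundaries higher and 1 lower in WT cells, 0 and 1 in Y36C cells, 1 higher and 123 lower under E7107, and 120 lower for the difference. It left 1 exon-skipping junction higher and 0 lower in WT cells, 0 higher in Y36C cells, and 0 higher and 1 lower for the difference, and 1 other junction higher and 7 lower in WT cells and 1 lower in Y36C cells. With PSI itself as the response the counts were 9 boundaries higher in Y36C cells, 1 higher under E7107, 1 higher for the difference, 0 exon-skipping junctions lower in WT cells, and 2 other junctions higher in each line. With no filter they were 12 boundaries higher and 2 lower in Y36C cells, 1 higher under E7107, and 9 other junctions higher in WT cells and 2 in Y36C cells. With an offset of 0.1 points they were 3 boundaries lower and 2 other junctions higher in Y36C cells, and 2 genes lower in Y36C cells. With the boundaries of all GENCODE introns 0 genes were lower in Y36C cells, and with the median over boundaries 1 gene was lower in Y36C than WT under DMSO. The cause of these changes was not tested beyond the fewer or more rows that the filters admit.

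With the replicate number as a block, 9 boundaries were higher and 2 lower in Y36C cells, 1 was higher under E7107, 7 exon-skipping junctions were higher in Y36C cells, and 0 genes were lower there, with an adjusted p of 0.0503 for DDX46 by limma. The block removed the call of 9 of 227 single results, DDX46 among them, all in Y36C cells, and added none. The others include the donor of SF3B3 intron 22 (adjusted p = 0.0647) and the junction within SF3B3 intron 11 (adjusted p = 0.055), both in Y36C cells by limma. The read depth behind each PSI is unknown, which limits above all the sites inside introns, where replicates varied most.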

Other observations

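Genes that work beside the SF3 proteins were affected in the same direction in WT cells. Of 10 other protein genes of the U2 particle, 9 had at least 2 boundaries measured and all 9 had a higher mean retention under E7107 in WT cells (72.7% of all genes), from 0.444 points for SNRPF to 9.27 points for SNRPB2, which encodes the U2-B″ protein (limma, adjusted p = 0.000496 and 2.18e-11). SNRPB2 went from 0.697% ± 0.217 to 9.97% ± 0.829 (SD, n = 6 each). In Y36C cells 0 of the 9 passed by limma (48.8% of all genes higher) and 1 had an unadjusted p under 0.05, and their changes ran from -0.194 points for SNRPE to 0.442 points for SNRPA1. The drug effect was smaller in Y36C cells for all 9 (61.2% of all genes).

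Of 13 genes for branch site recognition and U2 partners, all 13 were higher in WT cells, from 4.14 points for DNAJC8 to 70.0 points for CHERP, a U2-associated protein, which went from 4.04% ± 0.104 to 74.0% ± 2.09 and so exceeded every SF3a and SF3b gene. In Y36C cells 9 of the 13 were higher (48.8% of all genes), a count that was 6 with the boundaries of all GENCODE introns (45.9% of all genes) and with the median over boundaries (24.1%). CHERP was at 3.95% ± 0.2 in DMSO and 5.61% ± 0.301 in E7107 (SD, n = 6 each). The helicase gene DDX42 changed most there, by 3.63 points (limma, adjusted p = 3.8e-06), and was the 1 gene of these lists that differed between the lines under DMSO, by 1.16 points (limma, adjusted p = 0.0493). The count of such calls was 1 with PSI as the response and 0 with the smaller offset, all GENCODE introns, the median over boundaries or the replicate block. The median change in WT cells was 10.8 points in this list, 3.32 points in the other U2 proteins, 6.41 points in the SF3a and SF3b genes with DDX46, and 6.43 points over all genes. In Y36C cells the same medians were 0.85, 0.0269, 0.105 and 0.889 points.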
